A study of Mus musculus with 4 samples.

Results

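The replication-dependent histone genes encode the linker histone H1 and the core histones H2A, H2B, H3 and H4. They were taken here by symbol as H1f1 to H1f5 and every gene named H2ac, H2bc, H3c or H4c with a number, which gave 66 of the 56941 features in the files: 5 H1, 18 H2A, 18 H2B, 12 H3 and 13 H4 genes. Their transcripts were followed in mouse bone marrow by droplet single-cell RNA sequencing of 4 libraries. Each group is a single library, so no comparison has a replicate and no test is possible. The groups were MLL-AF9 primary leukaemia labelled Rbm5 knockout (KO), MLL-AF9 primary leukaemia labelled wild type (WT), c-Kit+ bone marrow cells labelled Rbm5 KO, and c-Kit+ bone marrow cells labelled WT. MLL-AF9 is a fusion oncogene that drives acute myeloid leukaemia, and the leukaemias were taken at the endpoint after a primary transplantation. c-Kit is the receptor by which stem and progenitor cells are usually enriched. The labels do not give the deleted part of Rbm5, the promoter of the fusion gene, the ages, or whether a library came from 1 animal or a pool.

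A replicating cell must package each new length of DNA, and it makes most of its histone mRNA from these clustered genes in S phase. The mRNAs usually end without a poly(A) tail, in a short stem-loop that is bound by the stem-loop binding protein SLBP and cut by the U7 snRNP machinery, and they are degraded when replication stops. Some members are known to be made also as polyadenylated forms, mainly from longer transcripts in cells that differentiate or leave the cycle. The libraries were primed with poly-dT per the labels' protocol. The counts below therefore hold only histone RNA that such a primer captured, by a poly(A) tail or an internal run of A, and not the whole histone mRNA of a cell.

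The stem-loop was searched in the gene models of GENCODE M21 (GRCm38, the build named mm10 in the processing notes) as a 6-base stem and a 4-base loop, and it was found in 43 of the 66 members. In those it began 21 to 58 nt after the stop codon, with a median of 31 nt, and the annotation of 17 of the other 23 members ends under 50 nt after the stop codon. The stem and loop had 6 forms, of which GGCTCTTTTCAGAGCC was in 26 members, while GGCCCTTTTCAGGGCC was in 7, all of them H4 genes. The 8 examples that follow are members with high counts or with unusual values below, with the 16 bases of stem and loop in capitals and 7 bases on each side in lower case, from the 3′ UTR of each model.
H1f2: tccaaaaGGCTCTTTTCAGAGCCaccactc
H1f4: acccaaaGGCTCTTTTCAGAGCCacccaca
H2ac8: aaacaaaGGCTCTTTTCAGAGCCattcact
H2ac25: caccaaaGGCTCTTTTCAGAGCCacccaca
H3c3: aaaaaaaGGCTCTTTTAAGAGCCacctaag
H4c4: aaccaaaGGCCCTTTTCAGGGCCactacct
H4c9: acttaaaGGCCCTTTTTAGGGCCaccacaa
H4c8: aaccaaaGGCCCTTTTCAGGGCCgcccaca
H2bc4, which has 742 nt annotated after its stop codon, had no such element in its model. Beyond the stem-loop, 840 nt were annotated in H1f2, 1643 nt in H2ac25 and 330 nt in H4c9, each with a polyadenylation signal near the annotated end, against 3 nt in H2ac24. In all, 29 members had 100 nt or more annotated after the stop codon.

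Of the members, 53 lie on chromosome 13, 10 on chromosome 3, 2 on chromosome 11 and 1 on chromosome 6. A RefSeq promoter (GRCm38.p6, 250 bases before to 50 bases after the annotated start) was matched for 57 of them. The CCAAT box, searched as CCAAT on both strands, was in 86.0% of these promoters, against 41.1% of all 27025 promoters in the table. It was in every matched H1, H2A, H2B and H3 promoter and in 27.3% of the H4 promoters. The TATA box, searched as TATAAA on both strands, was in 59.6% of members against 15.7% of all promoters, and the octamer ATTTGCAT in 22.8% against 1.97%, within members only in H2A and H2B genes. None of these motifs is contained in another. In 18 members, all H2A or H2B genes, the promoter window overlapped that of another member, so these are not independent promoters. A match is a run of letters and not evidence of a bound factor. The promoters of H1f2 (chr13:23738557-23738856, plus strand), H1f5 (chr13:21780576-21780875, minus strand), H2ac24 (chr13:21833426-21833725, minus strand) and H4c4 (chr13:23581318-23581617, plus strand) are given 5′ to 3′ with these motifs in capitals, because these 4 genes carry most of the contrasts below.
H1f2: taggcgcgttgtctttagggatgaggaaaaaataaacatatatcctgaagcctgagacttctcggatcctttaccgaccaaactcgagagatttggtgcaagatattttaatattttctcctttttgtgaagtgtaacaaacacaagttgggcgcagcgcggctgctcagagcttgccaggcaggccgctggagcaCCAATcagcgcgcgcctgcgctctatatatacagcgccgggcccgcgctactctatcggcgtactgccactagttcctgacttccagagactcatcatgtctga
H1f5: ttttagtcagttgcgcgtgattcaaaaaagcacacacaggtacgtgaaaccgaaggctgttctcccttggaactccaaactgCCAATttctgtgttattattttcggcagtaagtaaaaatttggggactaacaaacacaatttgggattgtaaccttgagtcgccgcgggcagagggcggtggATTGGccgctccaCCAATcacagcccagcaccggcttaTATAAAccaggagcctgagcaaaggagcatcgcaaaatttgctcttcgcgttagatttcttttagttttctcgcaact
H2ac24: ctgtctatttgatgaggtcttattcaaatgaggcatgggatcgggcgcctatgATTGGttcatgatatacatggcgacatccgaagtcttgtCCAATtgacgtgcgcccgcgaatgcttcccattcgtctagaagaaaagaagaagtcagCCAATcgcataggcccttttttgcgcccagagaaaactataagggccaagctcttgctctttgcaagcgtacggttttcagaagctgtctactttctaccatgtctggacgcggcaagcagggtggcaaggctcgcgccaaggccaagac
H4c4: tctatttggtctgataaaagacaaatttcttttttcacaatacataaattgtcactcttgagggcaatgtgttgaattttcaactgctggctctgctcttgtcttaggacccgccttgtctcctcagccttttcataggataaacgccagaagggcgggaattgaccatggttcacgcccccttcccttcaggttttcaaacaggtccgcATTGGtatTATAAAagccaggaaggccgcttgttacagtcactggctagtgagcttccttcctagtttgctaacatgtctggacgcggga

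After filtering, 11778 cells of KO leukaemia, 13177 of WT leukaemia, 13708 of KO c-Kit+ and 12948 of WT c-Kit+ cells were kept, with 93004538 to 101255178 UMIs per library and median depths of 7420.5, 5946, 5428 and 5352 UMIs per cell. Ribosomal protein genes took 8.85%, 10.6%, 12.4% and 11.4% of UMIs and Malat1 1.20%, 0.986%, 0.531% and 0.527% in the same order. Any pair of libraries shared 44 to 69 cell barcodes, at most 0.487% of the smaller library. Rbm5 itself stood at 116 CPM (UMIs scaled to the same total in every library) in KO against 160.5 CPM in WT leukaemia, and at 89.6 CPM in KO against 75.5 CPM in WT c-Kit+ cells, so its level did not separate the labels in c-Kit+ cells, and 3′ tags check nothing where the deleted part is unknown. KO and WT therefore mean the libraries labelled KO and WT throughout, and every direction below rests on those labels. The MLL-AF9 target Hoxa9 was at 105 and 174 CPM in KO and WT leukaemia, against 5.41 and 5.20 CPM in KO and WT c-Kit+ cells. Kit was at 43.9 CPM in KO and 45.8 CPM in WT c-Kit+ cells, between the 28.4 CPM of KO and the 61.3 CPM of WT leukaemia, and cells with secondary granule neutrophil markers made up 47.4% of the KO and 51.4% of the WT c-Kit+ library.

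Histone members made up a small and uneven part of the captured RNA. Their summed level was 2058 CPM in KO leukaemia, 2899 CPM in WT leukaemia, 3561 CPM in KO c-Kit+ and 2677 CPM in WT c-Kit+ cells. KO c-Kit+ cells thus had the highest sum and KO leukaemia the lowest. A UMI of at least 1 member was found in 90.6%, 91.0%, 85.0% and 80.1% of the cells in this order. In each library a few genes carried most of the signal, since the 5 highest members held 60.0% of the member UMIs in KO leukaemia, 60.8% in WT leukaemia, 68.4% in KO c-Kit+ and 68.9% in WT c-Kit+ cells. Of the 66 members, 44 averaged 5 CPM or more over the 4 libraries and 6 averaged 100 CPM or more.

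H2ac24, an H2A gene (chr13:21833026-21833507 in GRCm38), was the highest in every library, at 413 CPM in KO leukaemia, 811 CPM in WT leukaemia, 1121 CPM in KO c-Kit+ and 803 CPM in WT c-Kit+ cells. H1f5, a linker histone, stood at 131, 249.6, 571 and 455 CPM in that order, and came next after H2ac24 only in the c-Kit+ libraries. H2ac8, another H2A gene, was at 229, 310.4, 374 and 287 CPM, above H1f5 in both leukaemias. Among the other classes the highest H4 gene was H4c4 at 100.4, 239, 164 and 139 CPM, and the highest H3 gene was H3c3 at 69.4, 122, 97.4 and 71.5 CPM. In KO leukaemia H1f2 (285 CPM) came next after H2ac24, and H2bc4 (177 CPM) next after H2ac8.

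H1f2, the linker histone H1.2, was at 285 CPM in KO leukaemia and at 65.7, 85.9 and 80.6 CPM in WT leukaemia, KO c-Kit+ and WT c-Kit+ cells. H2bc4, the highest H2B gene, was at 177 CPM in KO leukaemia and at 70.2, 64.6 and 46.5 CPM in the other libraries. For both genes KO leukaemia stood apart from the other 3 libraries, though for H2bc4 these ranged from 46.5 to 70.2 CPM. H1f2 was detected in 51.8% of KO leukaemia cells against 24.9% of WT leukaemia cells. At the low end, H2bc1 and H3c14 had no UMI in any library, for which 3 counts in the shallowest library, the limit taken for a count of 0, are 0.0323 CPM, and H2ac1, H2ac19 and H2bc23 had 0 to 6 UMIs per library (these 5 are named for their low counts, after their values were seen).

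**Figure D1:**
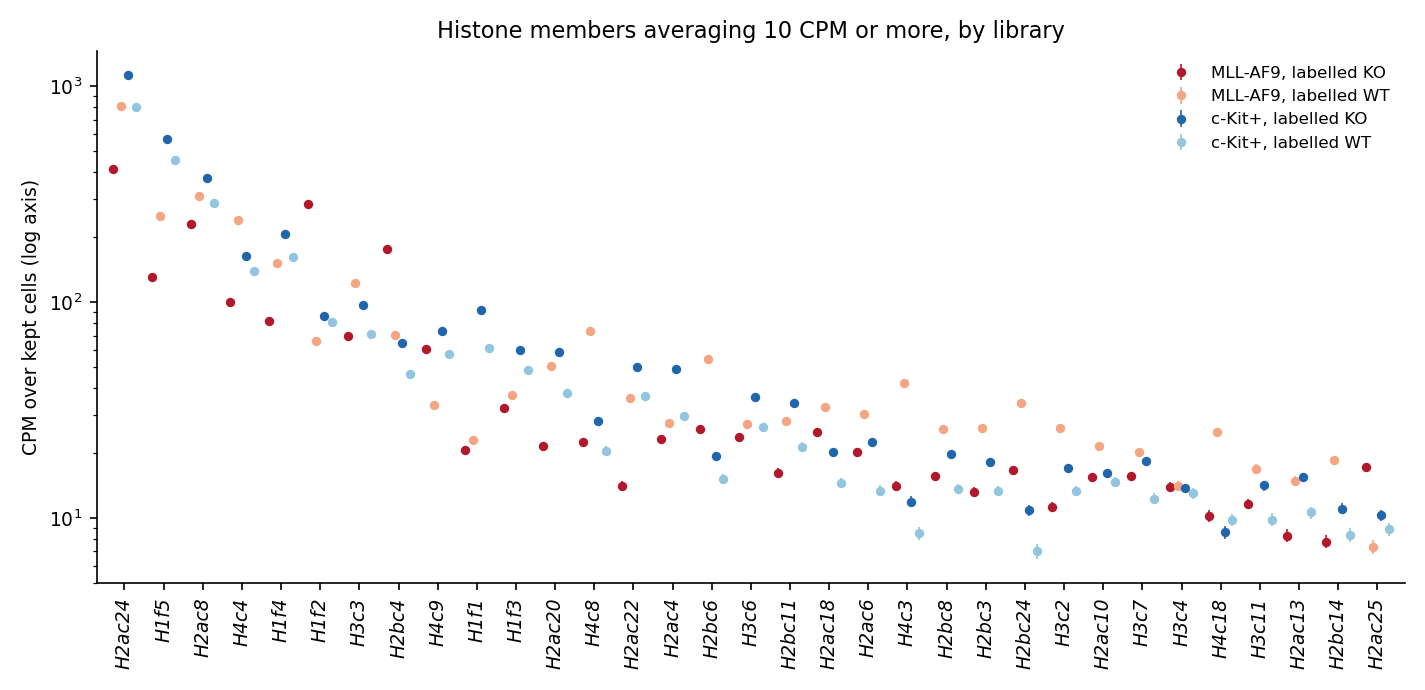
Level of the 33 members that averaged 10 CPM or more, in CPM on a log axis, ordered by their mean; each point is 1 library and bars are exact Poisson 95% intervals, mostly smaller than the points. H1f2 and H2bc4 are highest in KO leukaemia, at 285 and 177 CPM, while H2ac24 and H1f5 are lowest there, at 413 and 131 CPM.

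Near-identical copies limit what a single member's count means. In the GENCODE M21 models, 27 members shared more than 50% of their 90-base windows with another gene and 7 shared more than 90%, among them H2ac24 with 92.4%. The value was 88.5% for H4c17, 83.9% for H2ac22 and 81.2% for H4c18, so the counts of these genes may be split among copies. It was 5.71% for H1f2, 0.858% for H4c4, 26.1% for H2bc4, and 0 for H1f1 and H1f5, whose counts are less open to this. H1f4 shared 26.2%, in part with H2bc6, whose model overlaps it.

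Between the leukaemias, most histone members were lower in KO than in WT, while H1f2 and H2bc4 were higher. The summed level was 2058 CPM in KO against 2899 CPM in WT, a ratio of 0.710 (95% interval 0.706 to 0.714, as for all intervals here covering counting error only). Over the pair 44 members averaged at least 5 CPM, of which 23 were lower in KO by 1.5-fold or more on the log2(CPM + 1) scale, where 35.1% of the 9901 genes of that level were lower. The 4 members H1f2, H2bc4, H2ac25 and H4c9 were higher by that fold, which is 9.09% of the members, near the 9.49% of all genes. Below 0 on the log2 scale were 38 of the 44 members, against 74.6% of all genes. The members' median log2 ratio was -0.67 and that of all genes -0.38, so the whole library pair was shifted downward and the members' share of lower calls stood above a high background.

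Most of the lowest ratios were those of H4 genes. H4c8 was at 22.4 CPM in KO against 73.7 CPM in WT leukaemia (ratio 0.304, 0.289 to 0.318), and H4c3 at 14.1 against 42.4 CPM (0.333, 0.313 to 0.354). H4c4, the most abundant H4 gene, was at 100.4 against 239 CPM (0.420, 0.411 to 0.430). On the log2(CPM + 1) scale H4c18 and the H2A gene H2ac22 completed the 5 lowest, at -1.22 and -1.30, while by the ratio itself H2ac7 (0.377, 0.332 to 0.428) stood below both and below H4c4. As a class, H4 transcripts summed to 230.2 CPM in KO against 453 CPM in WT leukaemia (ratio 0.509). H2A transcripts summed to 807 against 1376 CPM (0.586, 0.581 to 0.592), in which H2ac24 alone had a ratio of 0.509, and H3 transcripts to 163 against 243 CPM (0.670, 0.656 to 0.683).

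The H1 and H2B sums hid members that moved apart. H1 transcripts summed to 550.5 CPM in KO and 527 CPM in WT leukaemia (ratio 1.04), while H1f5 (0.524, 0.512 to 0.535) and H1f4 (0.538, 0.524 to 0.553) were lower and H1f2 (4.34, 4.22 to 4.46) was higher. H1f1 and H1f3, at log2 ratios of -0.15 and -0.20, lay between them. H2B transcripts summed to 308 and 301 CPM (1.03), with 7 of 11 members lower by 1.5-fold and H2bc4 higher (2.52, 2.45 to 2.59). Without H1f2 and H2bc4, a choice made after their values were seen, the ratio of the whole sum was 0.578 (0.574 to 0.581). The other 2 higher members were the H2A gene H2ac25, at 17.2 CPM in KO against 7.35 CPM in WT, and the H4 gene H4c9, at 60.7 against 33.4 CPM. H3c1, an H3 gene and the next in this order, was at 9.44 against 6.40 CPM and did not pass 1.5-fold.

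Another scaling changed the level of the ratios. With median-ratio size factors the median of all genes moved by 0.34, to -0.04, and that of the members to -0.36. Then 15 members were lower and 5 higher by 1.5-fold, where 15.5% of all genes were lower and 16.4% higher, and the summed ratio was 0.907. A size factor rescales every gene of a library alike. The order of the members and their distance from the median of all genes could therefore hardly change, and are no separate support.

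**Figure D2:**
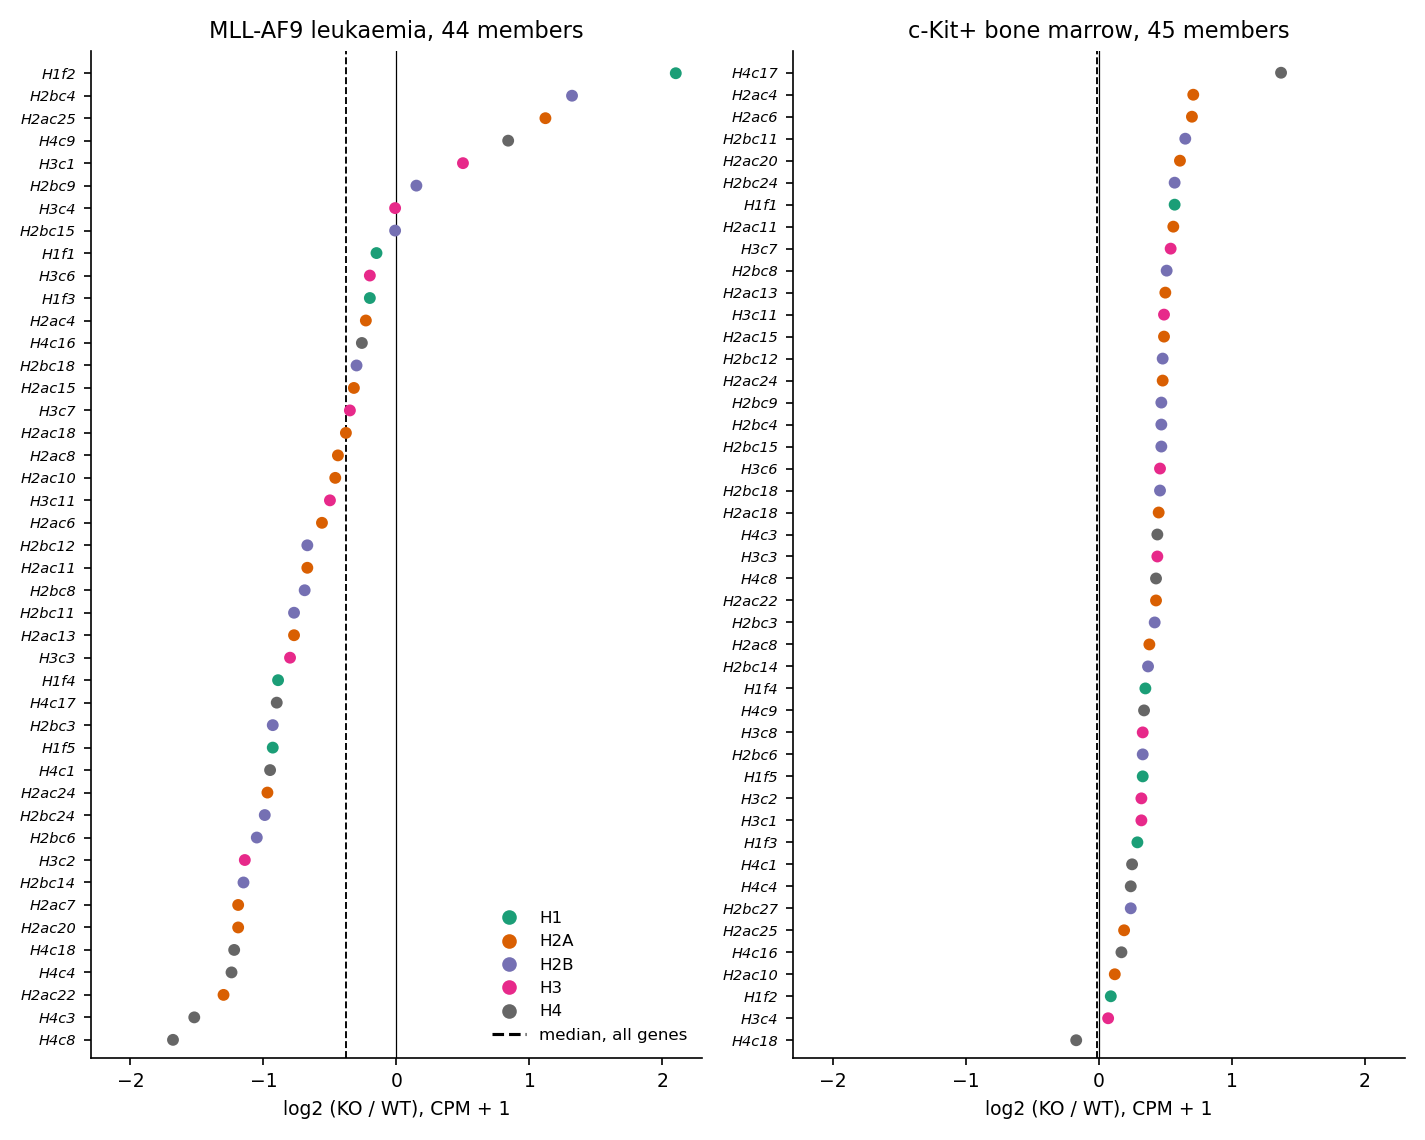
log2 ratio of KO to WT for every member averaging at least 5 CPM, in leukaemia (left, 44 members) and in c-Kit+ cells (right, 45 members), coloured by histone class, with the median of all genes as a dashed line. In leukaemia the ratios run from -1.68 (H4c8) to 2.10 (H1f2). In c-Kit+ cells they run upward from -0.17 (H4c18), with a median of 0.44 and quartiles of 0.32 and 0.49, and H4c17 stands alone at 1.37.

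In c-Kit+ cells the members moved the other way and together. Their sum was 3561 CPM in KO against 2677 CPM in WT (ratio 1.33, 1.32 to 1.34). At the same level 45 members were counted, of which 5 were higher in KO by 1.5-fold and 0 were lower, where 0.262% of 9555 genes were higher and 0.199% lower. At 1.25-fold, a step added after this small spread had been seen, 34 members were higher and 0 lower, against 1.79% and 1.34% of all genes. In all 44 of 45 members had a log2 ratio above 0, as did 47.6% of all genes, and the exception was H4c18 (8.57 against 9.79 CPM). The members' median log2 ratio was 0.44, with quartiles of 0.32 and 0.49, beside -0.01 for all genes.

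The 5 members past 1.5-fold were H4c17, H2ac4, H2ac6, H2bc11 and H2ac20. H4c17 was at 10.6 CPM in KO against 3.51 CPM in WT c-Kit+ cells (ratio 3.03, 2.68 to 3.44), the largest ratio among the members tested in this pair. H2ac4 was at 49.0 against 29.6 CPM (1.66, 1.58 to 1.74) and H2ac20 at 58.9 against 38.1 CPM (1.55, 1.48 to 1.61). The abundant genes differed by less and in the same direction: H2ac24 had a ratio of 1.40 (1.38 to 1.41), H1f5 of 1.25 (1.24 to 1.27), H2ac8 of 1.31 (1.28 to 1.33) and H4c4 of 1.18 (1.15 to 1.21). H1f2 was among the 5 lowest of this pair, at 85.9 against 80.6 CPM (1.07, 1.03 to 1.10). All 5 classes summed higher in KO, with ratios of 1.26 for H1, 1.39 for H2A, 1.41 for H2B, 1.34 for H3 and 1.24 for H4. With median-ratio size factors the members' median was 0.41 and the summed ratio 1.30.

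Set side by side, 43 members were tested in both pairs. Lower in KO leukaemia and higher in KO c-Kit+ cells were 36 of them, higher in both were 6, lower in both was 1, and 0 showed the reverse. Of the 8953 genes of that level in both pairs, 37.3% were lower in KO leukaemia and higher in KO c-Kit+ cells, 9.94% higher in both, 37.7% lower in both and 15.1% the reverse. The pairs share no library. With 1 library per group, a difference between KO and WT cannot be told apart from a difference between any 2 animals or preparations.

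Genes that make or process histone mRNA were read from a list of 22, of which 20 had the level to be counted. In leukaemia 7 were lower in KO by 1.5-fold and 0 higher, with a median log2 ratio of -0.55. That share is no larger than the 35.1% of all genes that were lower in this pair. Below 0 on the log2 scale, however, were all 20, against 74.6% of all genes, whose median was -0.38. In c-Kit+ cells 0 passed the fold in either direction, with a median of -0.01. Slbp, whose protein holds the stem-loop, was at 175 CPM in KO and 202 CPM in WT leukaemia, and at 205 and 207 CPM in KO and WT c-Kit+ cells. Casp8ap2, which encodes the FLASH protein needed for histone transcription and 3′ processing, was at 34.9 against 71.9 CPM in KO and WT leukaemia and at 57.8 against 53.1 CPM in KO and WT c-Kit+ cells. Eri1, the exonuclease that trims histone mRNA ends, was at 42.0 against 62.7 CPM and at 53.9 against 55.8 CPM in the same pairs. In c-Kit+ cells, then, the members had a median of 0.44 while this list stayed near 0.

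Of 25 S phase genes (Slbp is on both lists), 21 were lower in KO leukaemia by 1.5-fold and 0 higher, with a median log2 ratio of -0.82, beside 35.1% lower and a median of -0.38 among all genes. In c-Kit+ cells 0 passed the fold in either direction and the median was 0.01. Pcna, the sliding clamp of the replication fork, was at 154 against 177 CPM in KO and WT leukaemia and at 230.0 against 238 CPM in KO and WT c-Kit+ cells. Dut, which keeps uracil out of DNA, was at 167 against 356 CPM and at 426 against 420.3 CPM in the same pairs. Of 18 mitosis genes 8 were lower in KO leukaemia and 0 higher (median -0.55), nearer to those shares, while 0 of 18 passed the fold in c-Kit+ cells (median 0.08). Mki67, a nuclear protein of cycling cells, was at 159 against 252 CPM in the leukaemias and at 421 against 392 CPM in KO and WT c-Kit+ cells.

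WT leukaemia and WT c-Kit+ cells had similar histone sums made of different genes. Leukaemia had 2899 CPM and the c-Kit+ cells 2677 CPM (ratio 1.08, 1.08 to 1.09). Of 44 members counted, 19 were higher in leukaemia by 1.5-fold and 3 lower, where 33.0% of 10036 genes were higher and 11.1% lower, and the medians were 0.42 for members and 0.28 for all genes. H4 transcripts summed to 453 CPM in WT leukaemia against 258 CPM in WT c-Kit+ cells (1.76, 1.73 to 1.78), and H2B transcripts to 301 against 167 CPM (1.80, 1.77 to 1.84). H1 transcripts went the other way, at 527 against 808 CPM (0.653, 0.645 to 0.660).

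On the log2(CPM + 1) scale H4c3 had the largest ratio of this comparison, with 42.4 CPM in WT leukaemia against 8.48 CPM in WT c-Kit+ cells (log2 ratio 2.19). H2bc24 (log2 ratio 2.13), H4c8 (73.7 against 20.5 CPM), H2bc6 (54.3 against 15.2 CPM) and H2ac7 (8.98 against 1.59 CPM) came next on that scale, and without the added 1 CPM the ratio of H2ac7 (5.65, 4.74 to 6.77) was above that of H4c3. H1f1, the linker histone with the lowest ratio, had a ratio of 0.373 (0.355 to 0.392), and H1f5 at 249.6 against 455 CPM. H2ac24 hardly differed, at 811 and 803 CPM. With median-ratio size factors, which moved the median of all genes by -0.35, the summed ratio was 0.846 and the members' median was 0.05. Of 43 members tested then, 10 were higher and 7 lower by 1.5-fold, where 18.2% of all genes were higher and 21.7% lower. The direction of the sum thus depended on the scaling.

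Cells with a UMI of Mki67 carried most of the histone RNA. They were 32.0% of KO leukaemia, 34.5% of WT leukaemia, 49.6% of KO c-Kit+ and 44.7% of WT c-Kit+ cells. They held 81.2%, 89.5%, 93.3% and 92.7% of the member UMIs, against 43.5%, 49.4%, 72.6% and 68.4% of all UMIs. Their summed member level was 3844, 5252, 4576 and 3626 CPM in this order, against 685.5, 603.8, 875.4 and 620.5 CPM in cells without an Mki67 UMI. The ratios were 5.61, 8.70, 5.23 and 5.84. Positive cells were deeper, with medians of 10906 against 6624 UMIs in KO leukaemia and 9462 against 3455 UMIs in WT c-Kit+ cells. With each cell thinned to 2000 UMIs, which left out 514 to 1781 shallower cells per library, 14.2%, 20.8%, 35.2% and 31.0% of cells had an Mki67 UMI and the ratios were 4.52, 5.26, 3.35 and 3.55. In cells gated by late neutrophil markers, a stage that has left the cycle, unthinned Mki67 detection was 9.63%, 6.10%, 6.27% and 1.30% at median depths of 3670.5, 2626, 1796 and 1946 UMIs.

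Pcna separated the cells less. Cells with a Pcna UMI had 2765, 3785, 4468 and 3464 CPM of member transcripts in KO leukaemia, WT leukaemia, KO c-Kit+ and WT c-Kit+ cells, and cells without had 1069, 1751, 1818 and 1288 CPM, ratios of 2.59, 2.16, 2.46 and 2.69. Both genes together gave a steeper order. In WT c-Kit+ cells the summed level was 424.9 CPM with neither gene, 1049 CPM with Pcna only, 2579 CPM with Mki67 only and 3907 CPM with both. In WT leukaemia it was 632.4, 562.2, 4221 and 5643 CPM, so Pcna alone marked no higher level there. Among cells with both genes, single cells still spread widely, from 229 CPM at the 10th percentile over a median of 1397 CPM to 14189.8 CPM at the 90th percentile in WT leukaemia, and from 461 over 3077 to 8486 CPM in WT c-Kit+ cells.

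**Figure D3:**
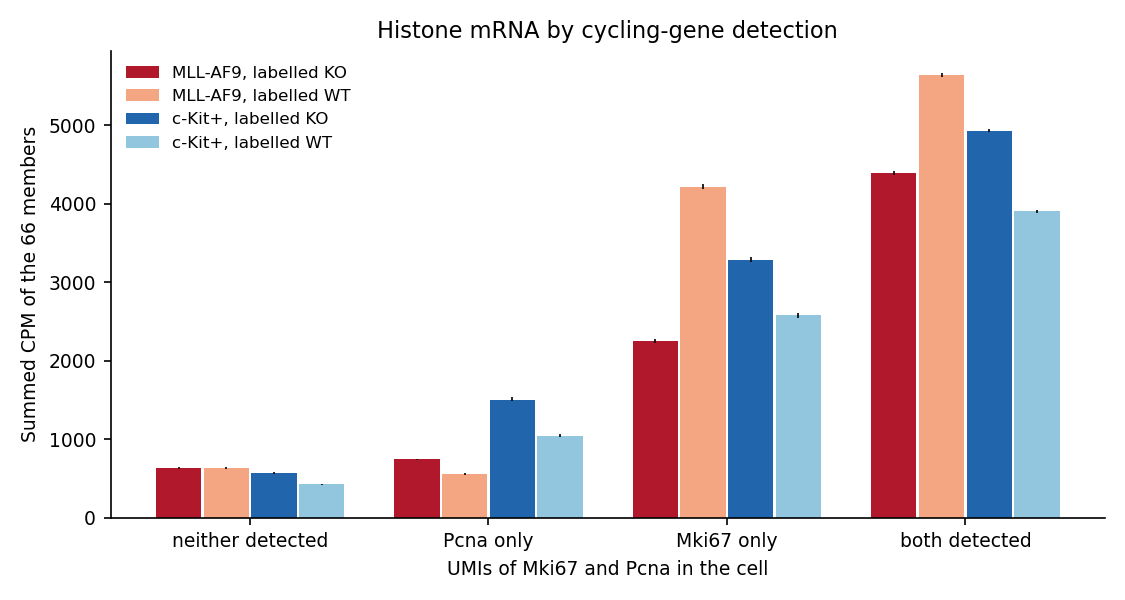
Summed CPM of the 66 members in cells grouped by a UMI of Mki67 and of Pcna, for the 4 libraries; bars start at 0 and error bars are exact Poisson 95% intervals. The level is highest with both genes in every library, from 3907 CPM in WT c-Kit+ to 5643 CPM in WT leukaemia, and the KO c-Kit+ bar is above the WT c-Kit+ bar in all 4 groups of cells.

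The members differed in how closely they followed Mki67. Of the 44 members averaging 5 CPM or more, 44 in KO leukaemia, 42 in WT leukaemia, 44 in KO c-Kit+ and 43 in WT c-Kit+ cells were higher in Mki67-positive cells. Their median log2 ratios were 2.73, 2.78, 2.26 and 2.46. The share of all genes higher in these cells is not given here, so the counts alone do not set the members apart. On the log2(CPM + 1) scale H3c3 had the highest ratio in 3 libraries, while without the added 1 CPM that of H2ac10 was above it in all 4. In WT c-Kit+ cells H3c3 stood at 102 CPM in positive against 6.04 CPM in negative cells (ratio 16.8, 14.5 to 19.6). H1f5 had a ratio of 10.2 (9.71 to 10.7) and H2ac24 of 8.51 (8.24 to 8.79) in the same library. H1f2 was at 76.5 CPM in positive and 89.7 CPM in negative WT c-Kit+ cells (0.853, 0.813 to 0.894), and H2bc4 at 51.0 and 36.7 CPM (1.39, 1.30 to 1.49). H2ac25 and H4c9 had ratios of 1.37 (1.17 to 1.61) and 2.94 (2.72 to 3.18).

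The 3 members least linked to Mki67 in WT c-Kit+ cells, H1f2, H2ac25 and H2bc4, were thus the 3 with the highest KO to WT ratios in leukaemia. Over 44 members Pearson's r between the link to Mki67 in WT c-Kit+ cells and the leukaemia log2 ratio was -0.43 and Spearman's rho -0.19. Without the 4 members higher in KO leukaemia, r was 0.08 over 40 members. Those 4 were picked by the leukaemia ratio itself, so a weaker r without them was partly built in. With the link read in KO leukaemia, WT leukaemia and KO c-Kit+ cells, r was -0.40, -0.50 and -0.44 over 44 members. Over the 40 members it was 0.06, -0.20 and 0.04. The points are not independent, since members share reads with near-identical copies.

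**Figure D4:**
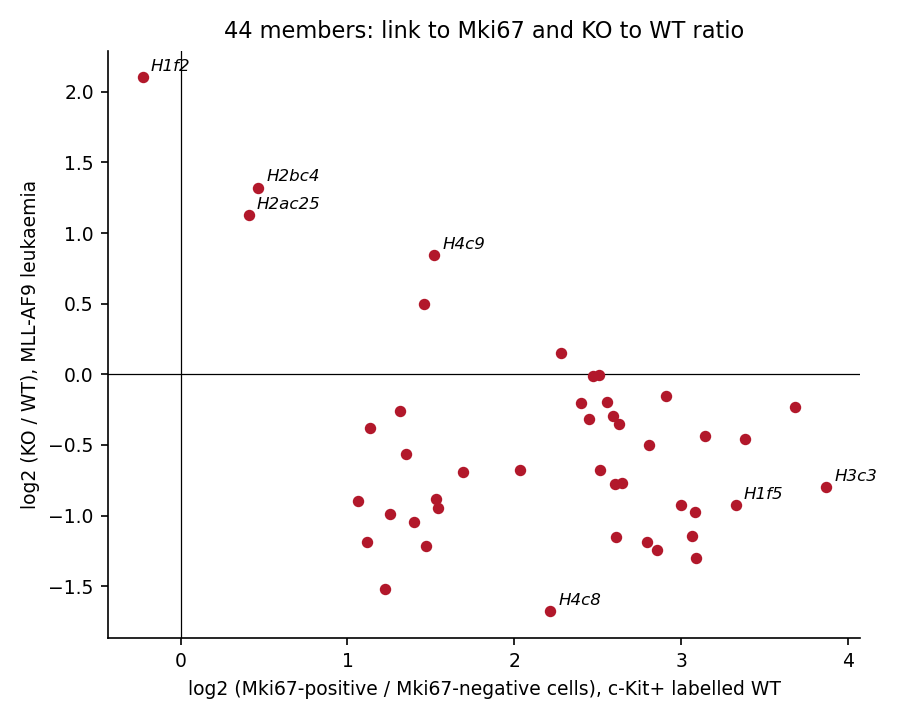
Each point is 1 of 44 members, with its log2 ratio of Mki67-positive to Mki67-negative cells in WT c-Kit+ cells on the x axis and its log2 KO to WT ratio in leukaemia on the y axis. H1f2, H2bc4 and H2ac25 lie at the upper left, with y values of 2.10, 1.32 and 1.12, and the other points show no slope.

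Within groups of cells of like Mki67 and Pcna detection the c-Kit+ difference remained. The KO to WT ratio of the sum was 1.35 (1.31 to 1.38) in c-Kit+ cells with neither gene, 1.44 (1.40 to 1.48) with Pcna only, 1.28 (1.26 to 1.29) with Mki67 only and 1.26 (1.25 to 1.27) with both. With equal weights of these groups in both libraries it was 1.28, against 1.33 unmatched. In Mki67-positive c-Kit+ cells the members' median log2 ratio was 0.35 beside -0.03 for all genes.

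In leukaemia the difference depended on the cells. The KO to WT ratio was 0.534 (0.526 to 0.542) with Mki67 only and 0.778 (0.773 to 0.784) with both genes, but 1.33 (1.30 to 1.36) with Pcna only, and with neither gene its interval was 0.983 to 1.02. H1f2 and H2bc4 weighed most in the cells without Mki67, where the ratio was 1.14 (1.12 to 1.15) with these 2 genes and 0.702 (0.689 to 0.716) without them. H1f2 itself was at 365 CPM in KO against 94.9 CPM in WT among Mki67-positive leukaemia cells (3.85, 3.72 to 3.98) and at 224 against 37.3 CPM among Mki67-negative cells (interval of the ratio 5.71 to 6.31). H2bc4 had ratios of 3.76 (3.61 to 3.91) in positive and 1.60 (1.53 to 1.66) in negative cells. The higher level of both was therefore present in cells with and without Mki67. H2ac24 had ratios of 0.561 (0.554 to 0.568) in positive and 0.792 (0.752 to 0.833) in negative cells.

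Fewer cycling cells in a library and less histone RNA per cell cannot be told apart in its sum. Cells were therefore also grouped by 13 sets of marker genes, and cells that reached no set were left ungated, 17.5% of KO leukaemia, 26.5% of WT leukaemia, 14.1% of KO c-Kit+ and 12.7% of WT c-Kit+ cells. These gates are ranges of a score and not types, and 12.2% to 27.0% of the cells per library lay near a threshold. Cells in the erythroid gate, most of which carried Mki67, had the highest member sums, 7105 CPM in KO leukaemia, 6059 CPM in WT leukaemia, 6866 CPM in KO c-Kit+ and 5287 CPM in WT c-Kit+ cells. Cells in the late neutrophil gate were low in all 4 libraries, at 780.1, 1083, 738.8 and 623.2 CPM. In c-Kit+ cells the sum stepped down along the neutrophil markers, from 3787 CPM in KO and 2823 CPM in WT cells of the primary granule gate over 2426 and 1895 CPM in the secondary granule gate. In the late gate 69.9% of KO and 62.5% of WT c-Kit+ cells still had a member UMI, so a single member UMI does not mark a cell in S phase.

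**Figure D5:**
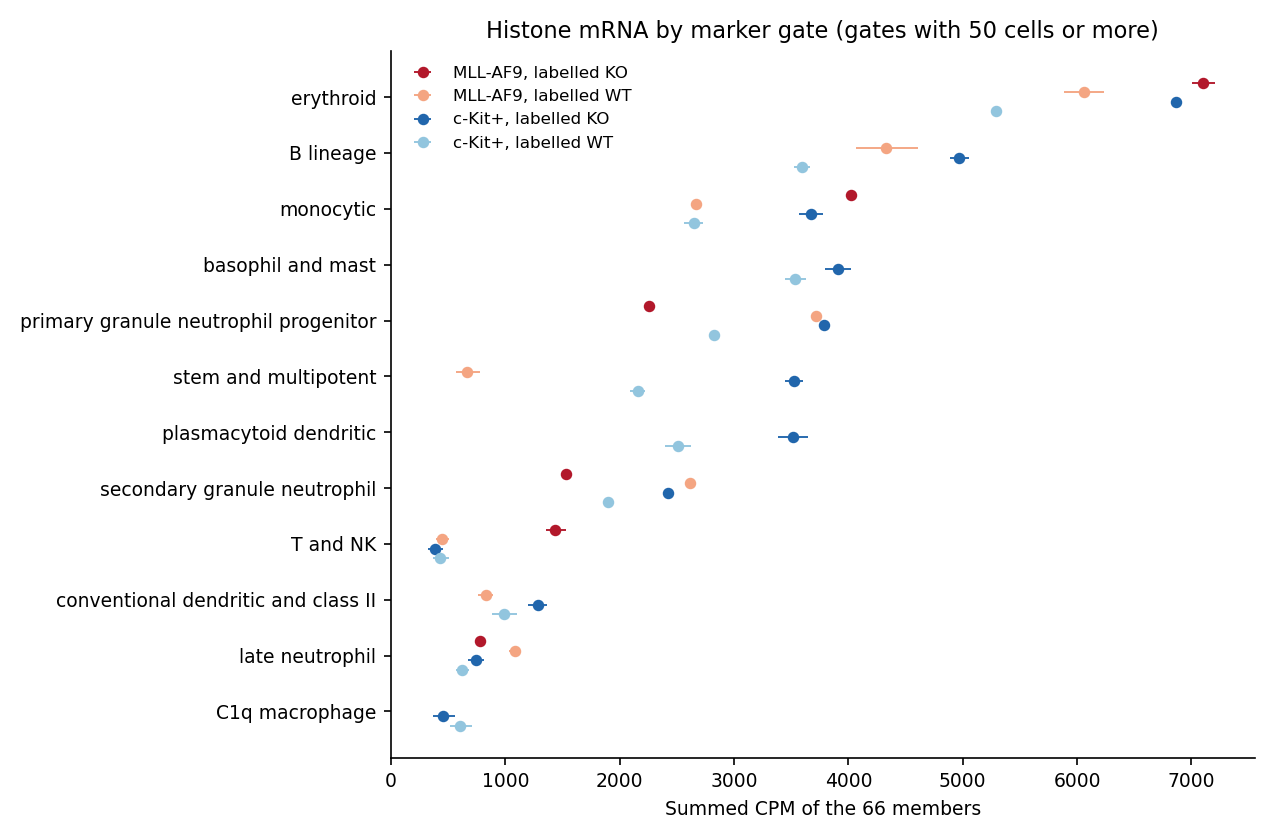
Summed CPM of the 66 members by marker gate, for gates with 50 cells or more in a library; points are libraries and bars exact Poisson 95% intervals. The erythroid gate is highest, from 5287 CPM in WT c-Kit+ to 7105 CPM in KO leukaemia, and in the c-Kit+ pair the KO point lies right of the WT point in all gates except T and NK and C1q macrophage.

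The share of Mki67-positive cells was 93.9% and 94.6% in the KO and WT c-Kit+ erythroid gates and 6.27% and 1.30% in their late neutrophil gates. Over all gates it did not follow the member sum. The WT c-Kit+ B lineage gate had 3592 CPM at 27.6% positive cells, and the WT c-Kit+ primary granule gate 2823 CPM at 73.0%. Within the WT c-Kit+ primary granule gate, Mki67-positive cells had 3222 CPM of member transcripts and negative cells 1403 CPM. In the B lineage gate of WT c-Kit+ cells, which has 27.6% positive cells, the values were 5629 and 621.3 CPM. The level among positive cells hence differed between gates as well.

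The KO to WT ratio in c-Kit+ cells was above 1 in 10 of 12 gates. It was 1.34 (1.33 to 1.36) in the primary granule gate, 1.28 (1.27 to 1.29) in the secondary granule gate, 1.30 (1.29 to 1.31) in the erythroid gate, 1.38 (1.35 to 1.42) in the B lineage gate and 1.63 (1.57 to 1.70) in the stem and multipotent gate. The exceptions were the T and NK gate (0.899, 0.709 to 1.14) and the C1q macrophage gate (0.746, 0.568 to 0.975), with 66 to 115 cells per library. With equal gate weights in both libraries the ratio was 1.32.

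Over all cells of a gate, the leukaemia ratio was below 1 in the neutrophil gates and above 1 in the other gates compared. The ratio was 0.607 (0.600 to 0.615) in the primary granule gate, 0.586 (0.581 to 0.592) in the secondary granule gate and 0.720 (0.675 to 0.768) in the late neutrophil gate. Ungated cells were at 0.809 (0.798 to 0.820). Among Mki67-negative cells the ratio was 1.61 (1.56 to 1.67) in the primary granule gate, and 0.929 (0.887 to 0.972) without H1f2 and H2bc4. Such cells were at 0.945 in the secondary granule and 0.703 in the late neutrophil gate. Over the whole monocytic gate the ratio was 1.51 (1.48 to 1.53), and 1.13 (1.11 to 1.15) without H1f2 and H2bc4. In its Mki67-positive cells without these 2 genes the interval was 0.984 to 1.02. In the erythroid gate, with 224 KO and 77 WT cells, the ratio was 1.17 (1.14 to 1.21). There the members' median log2 ratio was 0.50 beside -0.45 for all genes. In the T and NK gate, of 105 KO and 103 WT cells, the KO to WT ratio of the sum was 3.20 (2.77 to 3.70). Scrublet, a doublet caller, marked 9.52% of its KO and 6.80% of its WT cells. Among the 90 KO and 90 WT cells of this gate without an Mki67 UMI the ratio was 1.39 (1.17 to 1.66), and 0.908 (0.744 to 1.11) without H1f2 and H2bc4.

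The mix of gates differed between the leukaemias. The secondary granule gate held 55.5% of KO and 34.2% of WT leukaemia cells, and the primary granule gate 9.31% and 18.6%. The summed level of the 11 erythroid markers was 10203 CPM in KO and 2012 CPM in WT leukaemia, and that of the 8 monocytic markers 1349 and 1995 CPM. With equal gate weights the ratio of the member sum was 0.756, against 0.710 unmatched.

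H1f2 was higher in KO than in WT leukaemia in all 6 of these gates. In the monocytic gate it was at 606 CPM in KO against 59.6 CPM in WT, and in the secondary granule gate at 205 against 61.3 CPM. The smallest contrast was in the late neutrophil gate, with 231 against 174 CPM, where H2bc4 was lower in KO, at 208 against 248 CPM. In the c-Kit+ libraries the late neutrophil gate had the lowest H2ac24 among the neutrophil gates, 113 CPM in KO and 63.0 CPM in WT, but more H1f2 than the primary granule gate, 182 and 233 CPM against 54.8 and 52.3 CPM. H2bc4 was at 96.9 and 131 CPM in KO and WT cells of the late gate and at 70.1 and 51.8 CPM in the primary granule gate. In the secondary granule gate between them H2bc4 was lower, at 38.2 and 26.4 CPM, while H1f2 was at 98.5 and 89.9 CPM. In WT c-Kit+ cells H1f2 and H2bc4 were thus highest where H2ac24 was lowest along the neutrophil gates.

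Members were also compared by their annotated 3′ end. Among all genes 35.1% were lower and 9.49% higher in KO leukaemia. Of members with 100 nt or more annotated after the stop codon, 21 were tested, of which 8 were lower and 4 higher in KO leukaemia, with a median log2 ratio of -0.38. Of members with less, 23 were tested, of which 15 were lower and 0 higher, with a median of -0.77. Their sums were 1252 CPM in KO against 1354 CPM in WT leukaemia for the longer group (ratio 0.925, 0.917 to 0.932) and 807 against 1545 CPM for the shorter group (0.522, 0.518 to 0.527). Much of the gap between these ratios came from H1f2 and H2bc4, without which the longer group summed to 789.8 against 1218 CPM (0.648, 0.642 to 0.654). In c-Kit+ cells the medians were 0.37 for the longer and 0.47 for the shorter group. Members with longer models lay on both sides, with H4c4 (822 nt), H4c3 (503 nt) and H1f4 (1209 nt) among the 8 lower in KO leukaemia. Whether the 3′ end bears on a member's direction was not tested, and the authors' annotation may differ from the models read here.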

How the data were processed

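Droplet 3′ libraries were made with poly-dT primers and unique molecular identifiers (UMIs), per the labels' protocols. The deposited matrices hold raw UMI counts per gene and cell barcode, made by the authors with Cell Ranger 7.1.0 and build mm10, per the submitters' processing notes. The gene annotation and counting options are not given in the sources used here.

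Cells with at least 500 genes and 1000 UMIs and at most 10% mitochondrial UMIs were kept. Counts were summed per library and scaled to CPM; ratios used log2(CPM + 1), a mean of at least 5 CPM over the pair and a call at 1.5-fold. Intervals are exact 95% intervals (Poisson, conditional binomial for ratios, Clopper-Pearson for shares) and cover counting error only, since each group has 1 library. Whether a library is 1 mouse or a pool is not stated. Doublets were called with Scrublet (scanpy 1.11.5, expected rate 0.08) at 3.13% to 4.16% of cells and kept, and their removal was tried. A cell entered a marker gate at a score of 0.3 or more with 3 or more markers detected, thresholds set after the data had been seen. The calculations were tested on simulated data and ran in Python 3.11.15 with scipy 1.17.1. Stem-loops, 3′ lengths and shared 90-base windows came from GENCODE M21 (GRCm38), and promoters from RefSeq.

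The members and lists were chosen with earlier results of these data known. Named members are the 12 with the highest mean CPM, the 5 highest and 5 lowest ratios of each comparison, the highest of each class, and up to 6 of the most abundant genes of each list. Casp8ap2 and Eri1 were added for their roles. Other filters, pseudocounts, scalings, thinning and matching were tried.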

Additional observations from a re-analysis of the deposited data

Results flagged for a closer look

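The KO to WT difference of the summed members ran in opposite directions in leukaemia (log2 ratio -0.49) and in c-Kit+ cells (0.41), a gap of -0.91. With 1 library per group this difference between the pairs was not tested. The same opposite directions gave gaps of -1.24 for H2A, -1.00 for H3 and -1.29 for H4 transcripts. The H1 and H2B sums, which include H1f2 and H2bc4, were higher in KO in both pairs. Their ratios in leukaemia and c-Kit+ cells were 1.04 and 1.26 for H1, and 1.03 and 1.41 for H2B. The median log2 ratios of their members did run in opposite directions, at -0.20 and 0.33 for H1 and -0.69 and 0.47 for H2B.

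Single members with opposite directions past 1.5-fold in both pairs were H4c17, with log2 ratios of -0.90 in leukaemia and 1.37 in c-Kit+ cells (gap -2.27), H2ac20, with -1.19 and 0.61 (gap -1.80), and H2bc11, with -0.77 and 0.65 (gap -1.41). These were not tested either. H4c17 shares 88.5% of its 90-base windows with other H4 genes.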

How the results depend on the processing

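No paired analysis was possible because each group has 1 library, and for the same reason no replicate could be left out. The summed KO to WT ratio in leukaemia stayed below 1 under every setting tried: 0.716 without a cell filter, 0.702 with a strict one and also without ribosomal, mitochondrial and haemoglobin genes, 0.776 with equal weight per cell, 0.753 after thinning, 0.780 matched on Mki67 and Pcna, 0.756 matched on gates, 0.788 without H2ac24, 0.578 without H1f2 and H2bc4, and 0.907 with size factors. Members lower there were 15 with size factors and 11 at 25 CPM. In c-Kit+ cells the ratio stayed above 1: 1.32 without doublet calls, 1.30 with size factors, 1.35 without ribosomal, mitochondrial and haemoglobin genes, 1.38 with equal weight per cell, 1.40 after thinning, 1.28 matched on Mki67 and Pcna, 1.30 without H2ac24 and 1.32 matched on gates. Members higher there were 14 after thinning, 3 at 25 CPM and 2 with a pseudocount of 5. For WT leukaemia against WT c-Kit+ cells the ratio was 1.05 with strict cells, 1.06 without doublet calls, 1.07 without ribosomal, mitochondrial and haemoglobin genes and also with equal weight per cell, 1.02 after thinning, 1.40 matched on Mki67 and Pcna, 1.11 without H2ac24, and below 1 only with size factors (0.846). Members lower were then 7 with size factors, 1 matched on Mki67 and Pcna, 5 at 1 CPM and 6 with no level filter, and members higher were 10 with size factors and 5 at 25 CPM. A changed setting can also change the number of members tested and the share of all genes called. Apart from size factors, those shares are not given here, so these counts do not rank the settings. The leave-outs of H2ac24 and of H1f2 and H2bc4 and the gate matching were chosen after seeing the data. The causes of these shifts were not tested. With 208428 to 360029 member UMIs per library, counting error is small beside what the missing replicates leave unknown.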

Other observations

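In a list of histone variants that are not members here, 6 of 9 counted had log2 ratios below 0 in KO against WT leukaemia, as did 74.6% of all genes. In KO against WT c-Kit+ cells 9 of 10 had log2 ratios above 0, as did 47.6% of all genes. H3f3b, which encodes the replacement histone H3.3, was at 4929 CPM in KO against 1258 CPM in WT leukaemia (ratio 3.92, 3.89 to 3.94), and at 2574 against 2549 CPM in KO and WT c-Kit+ cells. H3f3a, which encodes the same protein, was at 3615 against 3249 CPM in KO and WT leukaemia. Macroh2a1, a macroH2A variant, was at 309.9 against 655 CPM (0.473), and H2az1, which encodes H2A.Z, at 1774 against 2052 CPM. H1f0, the linker histone of resting and differentiated cells, was at 106 against 56.4 CPM and was named after its values were seen. By 1.5-fold, 1 of the 9 was lower and 2 were higher in KO leukaemia, where 35.1% of all genes were lower and 9.49% higher. In c-Kit+ cells 0 of 10 passed, where 0.199% of all genes were lower and 0.262% higher.

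Of 17 histone chaperones, 7 were lower and 1 higher in KO leukaemia by 1.5-fold, shares near those of all genes. Below 0 on the log2 scale were 16 of them, against 74.6% of all genes, with a median of -0.50. In c-Kit+ cells 0 passed the fold (median 0.01). Supt16, a subunit of the FACT complex, was at 66.8 against 135 CPM in KO and WT leukaemia, and Nasp, an H3 and H4 chaperone, at 97.7 against 125 CPM.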
